A study of Mus musculus with 16 samples.

Results

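Plasma extracellular vesicles (pEVs) of wild-type (WT) mice carried small RNAs that were described here without any comparison of genotypes. The set was chosen by label: the 8 small RNA libraries labelled WT, of the 16 libraries in the series, the other 8 being from PS19 mice. The WT mice were littermates of PS19 mice on a B6;C3 background, lacked the human tau transgene of that line and were about 9.6 months old, with females and males in equal number, although the labels do not give the sex of each library. Each library (WT1 to WT8) came from 200 µL of plasma of 1 mouse, from blood drawn from the heart. The pEVs were collected with a precipitation kit, which can also bring down RNA bound to protein or lipoprotein, so a value here is a level in the precipitate, and fewer vesicles and less RNA per vesicle cannot be told apart. The data hold no RNA that marks vesicles themselves.

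MicroRNAs (miRNAs) are short RNAs cut from a hairpin precursor, and each hairpin can release a 5p arm and a 3p arm, of which usually 1 is kept in Argonaute proteins. A miRNA recognises mRNAs mainly through its seed, bases 2 to 8 from its 5′ end, and miRNAs that share a seed form a family. In blood, miRNAs and fragments of transfer RNAs (tRNAs) come from blood cells, vessel walls and organs such as the liver, and they travel in vesicles, in lipoproteins and bound to proteins.

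The sequences of the leading miRNAs are shown because their seeds set the families into which most reads fell. RefSeq mature sequences on GRCm38.p6 were matched by name for 695 of the 817 mature miRNAs listed, which held 64.9% ± 5.95 (SD, n = 8) of the mature miRNA reads. Each sequence runs 5′ to 3′, with the seed in capitals. The let-7 family, known for developmental timing and for repression of Lin28 and Ras mRNAs, was represented by these members.
mmu-let-7c-5p: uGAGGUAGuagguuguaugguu
mmu-let-7b-5p: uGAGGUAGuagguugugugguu
mmu-let-7f-5p: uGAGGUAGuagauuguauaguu
mmu-let-7a-5p: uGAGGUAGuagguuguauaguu
mmu-let-7i-5p: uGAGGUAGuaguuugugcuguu

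The leading miRNA by share and a pair that shares another seed follow. miR-148a-3p is abundant in liver, and miR-192-5p and miR-215-5p are known from liver, kidney and gut epithelium.
mmu-miR-148a-3p: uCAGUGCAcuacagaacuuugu
mmu-miR-215-5p: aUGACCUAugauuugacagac
mmu-miR-192-5p: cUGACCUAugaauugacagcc

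A further set was chosen because each stood well above its neighbours in its genomic cluster or led a smaller family.
mmu-miR-99a-5p: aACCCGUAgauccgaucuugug
mmu-miR-10a-5p: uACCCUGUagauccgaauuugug
mmu-miR-25-3p: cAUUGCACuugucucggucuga
mmu-miR-92a-3p: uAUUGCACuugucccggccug
mmu-miR-451a: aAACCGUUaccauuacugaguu

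The mature miR-148a-3p lies at chr6:51269829-51269850 on the minus strand of GRCm38, outside any other annotated gene. let-7c-5p has copies at chr15:85706616-85706637, within an exon of the long noncoding RNA Lncppara, and at chr16:77599672-77599693, within an intron of Mir99ahg, and its reads could not be divided between them. let-7b-5p lies at chr15:85707325-85707346, also in an exon of Lncppara, on the plus strand. let-7f-5p has a copy at chr13:48537889-48537910, on the minus strand in an exon of the long intergenic RNA 6720427I07Rik, and a copy at chrX:151912353-151912374 in an intron of Huwe1, while let-7a-5p has a copy at chr13:48538239-48538260, also in 6720427I07Rik, and a further hairpin, Mirlet7a-2, on chromosome 9, and its reads could not be divided between them. let-7i-5p lies at chr10:122985698-122985719 on the minus strand, in an exon of the pseudogene transcript D630033A02Rik. miR-215-5p lies at chr1:185313610-185313630 on the plus strand, in an exon of 2010103J01Rik and opposite an intron of Iars2, and miR-192-5p at chr19:6264857-6264877 on the plus strand with no host gene. miR-99a-5p lies at chr16:77598940-77598961 in an intron of Mir99ahg, and miR-10a-5p at chr11:96317186-96317208 on the plus strand with no host gene. miR-25-3p lies at chr5:138165332-138165353 on the minus strand in an exon of Mcm7, a subunit of the DNA replication helicase, and miR-451a at chr11:78073186-78073207 on the plus strand with no host gene. miR-92a-3p has a copy at chr14:115044476-115044496 in an exon of Mir17hg and a copy at chrX:52741854-52741874 on the minus strand with no host gene.

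The series lists 15159 ncRNAs, of which 13952 had at least 1 read in a WT library and 1207 had none. Reads assigned to ncRNAs ranged from 36220722 in WT2 to 117583663 in WT8, with a median of 96868790. These are sums over entries, and a read that matches several gene copies may be in them more than once. Mature miRNA reads ranged from 335410 in WT8 to 2681285 in WT2 (median 713439), so the library with the lowest total had the most miRNA reads. The limit that a count of 0 allows, 3 reads, was at most 0.000894% of a library's mature miRNA reads.

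tRNA entries held most of the assigned reads. The tRNA share was 97.8% ± 2.96 (SD, n = 8), from 90.8% in WT2 through a median of 98.99% to 99.6% in WT8. miRNAs held 1.73% ± 2.44, with the lowest library at 0.289%, the median at 0.673% and WT2 at 7.51%, the highest. circRNAs held 0.346% ± 0.400 and snoRNA and other small RNA genes 0.156% ± 0.143. WT2 stood apart from the other 7 libraries in the tRNA, miRNA and circRNA shares, and without it the mean miRNA share was 0.901% and the mean circRNA share 0.216%. The library names begin with the letter A, F or G, whose meaning the labels do not give. The miRNA share was 0.289% to 0.483% in the 2 libraries with A, 0.586% to 2.55% in the 4 with F and 0.556% to 7.51% in the 2 with G.

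The class shares depended strongly on how gene copies were counted. Many tRNA genes exist in copies that the deposited table lists as separate entries with nearly the same reads. Where entries of 1 class agreed within 5% in every library and were counted once, a choice made after the data were seen, the tRNA share was 86.6% ± 14.1, from 55.0% in WT2 to 96.5% in WT8. The miRNA share was then 10.8% ± 12.1, from 2.49% in WT8 to 38.3% in WT2 with 6.92% on average without WT2, and the circRNA share 1.97% ± 1.73. The reads counted in this way were 6522151 to 13163221 per library. tRNAs remained the leading class in each of the 8 libraries under both ways of counting.

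**Figure D1:**
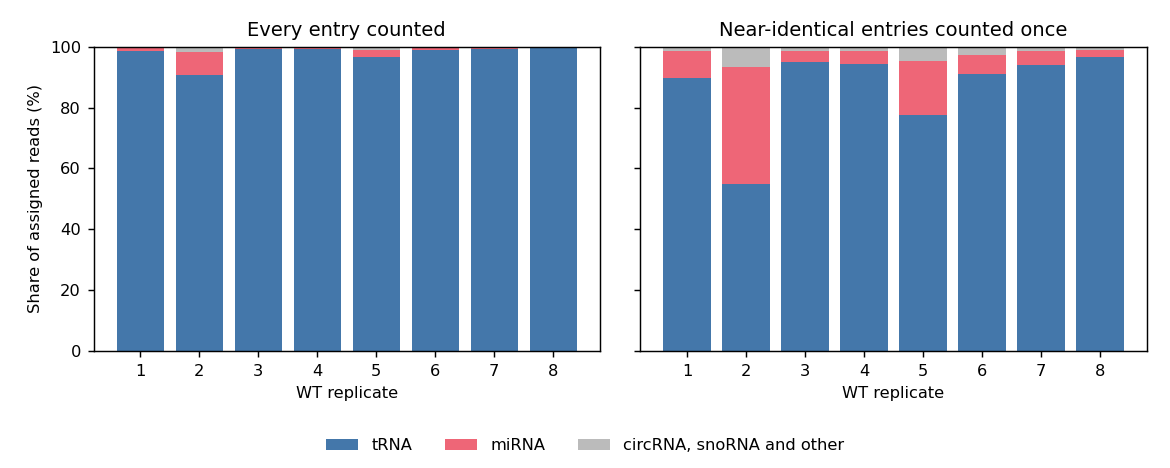
Share of assigned reads (%, linear axis from 0) held by tRNAs, miRNAs and the remaining classes in each of the 8 WT libraries, with every entry counted (left) and with near-identical entries counted once (right). tRNAs led in every bar, at 90.8% to 99.6% on the left and 55.0% to 96.5% on the right, with WT2 the lowest in both panels.

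Among mature miRNAs, 735 of the 817 listed had a read in a WT library, 82 had none, and 229 were found in all 8 libraries. These 229 held 99.8% ± 0.192 of the mature miRNA reads. A single library held reads of 366 to 506 mature miRNAs. 328 of the 817 averaged less than 1 read per library and 125 averaged at least 100. Over these 125 miRNAs the Spearman rho of shares between libraries was 0.793 (WT2 and WT7) to 0.955 (WT3 and WT7), with a median of 0.901 over the 28 pairs. These values describe pairs that share the same miRNA list, and miRNAs are not independent replicates.

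miR-148a-3p led the mature miRNAs with 22.7% ± 5.52 (SD, n = 8) of their reads, from 15.4% in WT4 through a median of 22.1% to 29.8% in WT1. It ranked first in 7 libraries and second in WT8. miR-122-5p, the hepatocyte miRNA known for its part in cholesterol metabolism, followed with 15.1% ± 10.4, from 3.13% in WT4 through a median of 15.6% to 29.4% in WT1. It was first in WT8 only, and its share differed 9.37-fold between libraries against 1.93-fold for miR-148a-3p. let-7c-5p came next with 11.2% ± 4.23, from 3.66% in WT2 through 12.3% to 15.8% in WT7, and let-7b-5p with 6.37% ± 1.36, from 4.73% in WT2 through 6.46% to 8.05% in WT8. These 4 names together passed 50% of the mature miRNA reads.

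miR-486b-5p and miR-486a-5p, whose hairpins lie at the gene Ank1, had 6.02% ± 2.49 and 5.87% ± 2.40. miR-486b-5p was the higher of the pair in 8 of 8 libraries, but by a mean log2 ratio of only 0.03 ± 0.02, and how reads were divided between these near-identical copies is uncertain. miR-143-3p, a miRNA of smooth muscle, had 2.49% ± 1.17, from 1.15% in WT1 through 2.02% to 4.57% in WT7. miR-215-5p had 2.41% ± 3.39, with a median of 1.198%, a lowest value of 0.864% in WT8 and 10.8% in WT5. Without WT5 its mean was 1.22%. miR-1a-3p, the leading miRNA of skeletal and heart muscle, had 2.18% ± 2.91, from 0.222% in WT2 through a median of 0.989% to 8.72% in WT4, a 39.4-fold range, and 1.24% without WT4.

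let-7f-5p held 2.37% ± 1.51, let-7a-5p 1.99% ± 1.02, let-7i-5p 1.86% ± 1.09 and let-7g-5p 0.815% ± 0.427. For let-7f-5p and let-7a-5p the highest share, 4.61% and 3.68%, was in WT3 and the lowest, 0.634% and 0.697%, in WT2. miR-192-5p had 1.40% ± 1.003, from 0.340% in WT7 to 3.53% in WT5, the library that was also highest for miR-215-5p. miR-99a-5p, known to repress Mtor, held 1.23% ± 0.342 and miR-151-3p 0.950% ± 0.284. The remaining members of the leading 20 were miR-423-5p with 0.931% ± 0.420, miR-25-3p with 0.862% ± 0.328, miR-30d-5p with 0.806% ± 0.145, and miR-10a-5p, from the HoxB cluster, with 0.743% ± 0.235. In share of mature miRNA reads miR-30d-5p had the narrowest range of the 20, 1.66-fold from 0.642% in WT8 to 1.07% in WT3.

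**Figure D2:**
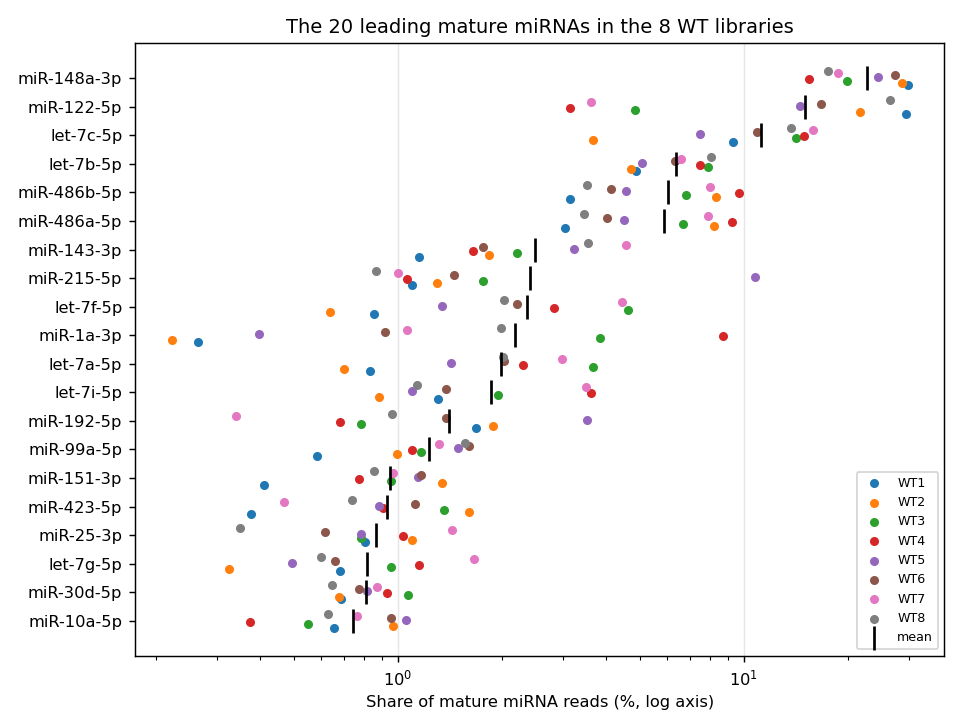
Share of mature miRNA reads (%, log axis) of the 20 mature miRNAs with the highest mean share, with 1 point per WT library and a bar at the mean. miR-148a-3p spans 15.4% to 29.8%, while miR-122-5p, miR-215-5p and miR-1a-3p spread widely and each of the latter pair has 1 library far to the right.

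Neighbours in the order of the 20 were compared within libraries. Each of the 19 neighbouring pairs was compared by the per-library log2 ratio with a two-sided exact sign-flip permutation test over 8 libraries, for which the smallest possible p is 0.00781. 5 pairs had an unadjusted p below 0.05 and 0 passed after Benjamini-Hochberg adjustment over the 19 pairs, where the smallest adjusted p was 0.0990. No pair on its own could pass after this adjustment, since the smallest possible p multiplied by 19 exceeds 0.05, so the 0 says little about the order. Mean log2 ratios were below 0, against the order, for miR-1a-3p over let-7a-5p (-0.73 ± 1.30) and miR-215-5p over let-7f-5p (-0.30 ± 1.69). They were also below 0 for miR-192-5p over miR-99a-5p (-0.06 ± 1.19) and let-7g-5p over miR-30d-5p (-0.13 ± 0.60). For miR-148a-3p over miR-122-5p the mean log2 ratio was 0.998 ± 1.11 (higher in 7 of 8 libraries, exact p = 0.0391, adjusted p = 0.148). let-7c-5p over let-7b-5p had a mean log2 ratio of 0.72 ± 0.49 (7 of 8, exact p = 0.0156, adjusted p = 0.0990), and miR-486a-5p over miR-143-3p 1.26 ± 0.84 with the same p values. Since the order was read from the same libraries, these p-values only set the size of each gap against the spread.

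The cumulative abundance was steep. On the mean shares, 4 mature miRNAs held 50% of the reads, 23 held 90% and 99 held 99%. Within single libraries these numbers were 2 to 5, 18 to 26 and 83 to 104. The own leading miRNA of a library held 15.4% to 29.8% of its reads, its leading 5 held 55.3% to 76.4% and its leading 10 held 74.5% to 84.7%. With 20 miRNAs the libraries differed little, from 86.5% to 91.3%, and with 100 they held 98.9% to 99.3%. WT1 had the highest share in its first 2 miRNAs, 59.2%, and WT4 the lowest, 30.4%, while for the leading 5 and the leading 10 the lowest library was WT3.

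**Figure D3:**
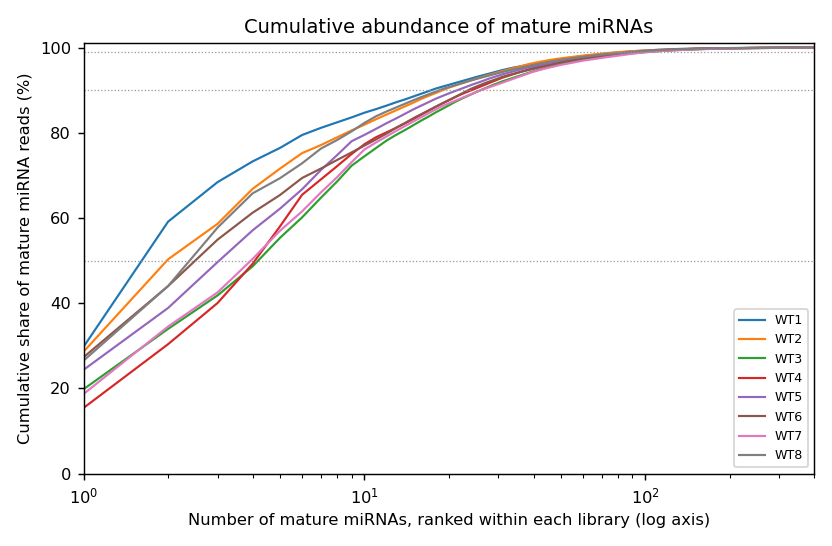
Cumulative share of mature miRNA reads (%, linear axis) against the number of mature miRNAs ranked within each library (log axis), with 1 line per WT library and dotted lines at 50%, 90% and 99%. The libraries fan out over the first 5 miRNAs, from 55.3% to 76.4%, and meet near 99% at 100 miRNAs.

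Grouped by seed, 2 families of the matched sequences led, and their order differed between libraries. The family with seed GAGGUAG, with the let-7 miRNAs and miR-98-5p and 10 members in all, held 24.98% ± 8.95 of the mature miRNA reads, from 11.1% in WT2 through a median of 25.8% to 35.5%. The family with seed CAGUGCA held 22.8% ± 5.51, of which 99.6% was miR-148a-3p, the other members being miR-152-3p and miR-148b-3p. The let-7 family was the higher of the pair in 4 of 8 libraries, from 2.11-fold above the other in WT4 to 2.59-fold below it in WT2. In the let-7 family the leading member, let-7c-5p, made up 44.4%. The pair miR-215-5p and miR-192-5p with seed UGACCUA held 3.82% ± 4.28, with 14.3% in WT5, and 2.32% on average without WT5. AUUGCAC (miR-25-3p, miR-92a-3p and 3 others) held 1.48% ± 0.430, ACCCGUA (miR-99a-5p, miR-99b-5p and miR-100-5p) 1.47% ± 0.397 and ACCCUGU (miR-10a-5p and miR-10b-5p) 1.21% ± 0.367. GAGGGGC (miR-423-5p) held 0.931%, GAGAACU (miR-146a-5p and miR-146b-5p, regulators of innate immune signalling) 0.739%, GUAAACA (miR-30a-5p and 3 others) 0.575% and CACAGUG (miR-128-3p) 0.534%. miRNAs without a matched sequence, such as miR-122-5p, miR-30d-5p and miR-30b-5p, were not placed in a family, so the shares and the order of families hold for matched miRNAs only.

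The abundant miRNAs differed in composition from the list of names. Of the 695 sequences, 41.2% began with U, but by reads 86.3% ± 5.82 did, from 72.2% to 89.5% over libraries. First bases A, C and G took 8.24%, 4.95% and 0.495% of the reads against 27.5%, 21.2% and 10.2% of the names. Sequences of 22 bases were 47.9% of the names and 84.8% ± 5.93 of the reads. The GC content averaged 51.1% over names and 42.4% ± 0.383 over reads. These are descriptions of the matched sequences only, and a few names carry most of the reads.

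Members of 1 genomic cluster differed widely in level in some clusters and less in others. Hairpins within 10000 bp of each other on 1 strand formed 46 clusters with at least 2 mature miRNAs detected. In the Mir17 to Mir92-1 cluster at chr14:115043671-115044506, known as an oncogenic cluster, miR-92a-3p held 0.613% and the next member, miR-20a-5p, 0.00510%, 120-fold less, although miR-92a-3p also has the copy on chromosome X. In the Mir144 and Mir451a cluster at chr11:78073005-78073241, miR-451a, an erythroid miRNA that matures without Dicer, held 0.393% and miR-144-3p 0.00155%, 254-fold less. In the Mir25, Mir93 and Mir106b cluster at chr5:138165321-138165818, miR-25-3p was 8.83-fold above miR-106b-3p, which held 0.0976%. miR-215-5p was 56.3-fold above miR-194-5p, with which it shares the cluster at chr1:185313319-185313692, although miR-194-5p also has the copy beside Mir192 on chromosome 19. In contrast, in the Mir23a, Mir27a and Mir24-2 cluster at chr8:84208518-84208921, miR-27a-3p (0.194%) and miR-24-3p (0.186%) were alike in mean share, with a ratio of 1.04. miR-24-3p also has a copy, Mir24-1, in the Mir23b cluster on chromosome 13, so this ratio is not one within a single cluster. In the Mir221 and Mir222 cluster on chromosome X, miR-222-3p was 1.44-fold above miR-221-3p. No test was run on these ratios.

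Most hairpins tested had the bulk of their reads on 1 arm. Both arms were listed for 192 hairpins, 190 had a read, and the 115 with a mean of at least 10 reads per library were tested with limma on the per-library difference of log2(normalized count + 1). The arms differed in 110 of 115 hairpins (95.7%) at an adjusted p below 0.05. The 5p arm was higher in 57 (49.6%) and the 3p arm in 53 (46.1%). On average over libraries the leading arm held over 90% of the reads of 88 hairpins and over 99% of 44. In 96 of the 110 the same arm led in every library, and in 8 the minor arm had 0 reads. Where the minor arm is at or near 0 reads the fitted difference depends on the pseudocount and is no bound.

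For the hairpins led by 5p, miR-486a had a 5p share of 95.8% ± 1.08 (lowest 94.0%, median 96.1%, highest 97.3%), a log2 difference of 4.55 (SE 0.13) and a limma adjusted p of 1.10e-12. miR-486b, whose 5p reads nearly equal those of miR-486a, had 99.5% ± 0.124, so the 3p reads differed between the pair, 19156 against 2101. let-7b had 464781 reads of 5p against 22 of 3p. miR-215 had 98.7% ± 0.575 on 5p, from 97.5% to 99.3%, and miR-192 had 156303 reads of 5p and 0 of 3p. All 5 were higher on 5p in 8 of 8 libraries.

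For the hairpins led by 3p, miR-148a had 2084869 reads of 3p against 104 of 5p, a log2 difference of -15.18 (SE 0.37, limma adjusted p = 3.16e-13). miR-143 had 196048 against 24, miR-151 88116 against 33, miR-25 76217 against 217 and miR-27b 26833 against 31. Their 3p shares were at least 98.6% in every library, and 3p led in 8 of 8 libraries for each.

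The 5 hairpins that did not pass were miR-30e, miR-503, miR-130b, miR-339 and miR-363. miR-30e was the deepest of them, with 2434 reads of 5p and 1919 of 3p and a 5p share of 51.6% ± 12.7, from 36.0% to 75.2%, with 5p ahead in 4 libraries and 3p in 4 (log2 difference 0.11, SE 0.29, limma adjusted p = 0.709). The other 4 averaged 14.4 to 50.9 reads per library over both arms, and at that depth their shares ran over wide ranges, to 100% on 1 arm in at least 1 library for each. A p above the threshold does not show that their arms were equal.

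**Figure D4:**
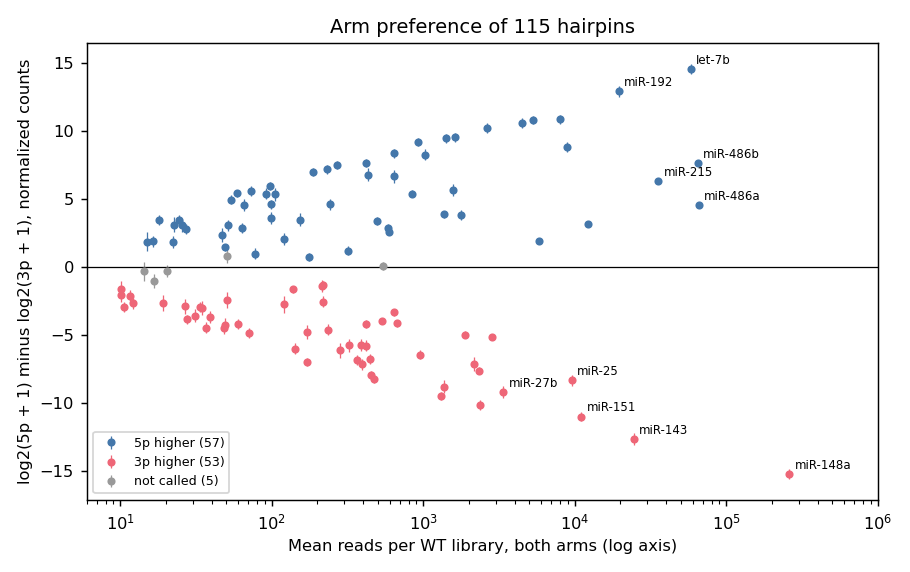
Difference between arms (log2 of normalized count + 1, 5p minus 3p, with SE bars over 8 libraries) against the mean reads of both arms (log axis) for the 115 hairpins tested, with 57 higher on 5p, 53 higher on 3p and 5 not called. The points part into an upper and a lower group, from miR-148a at -15.18 to let-7b at 14.56, and where the minor arm is near 0, as for let-7b with 22 reads of 3p, the size of the difference depends on the pseudocount.

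Mature entries held 98.5% ± 0.313 of all miRNA reads, with precursor entries holding the rest. The share was 97.8% in WT5, which stood apart, and between 98.5% and 98.7% in the other 7 libraries. Precursor reads were concentrated in few hairpins, with 5 entries holding 59.5% of them, from 49.1% to 71.1%. mir-192 had 51163 precursor reads, 26.5% ± 2.57 of all reads of its hairpin, from 22.4% through 26.2% to 31.1%. mir-140, known from cartilage, had 16948, or 46.3% ± 2.41, a share that stayed between 42.5% and 49.8%. Precursor reads of mir-142a, a hairpin of blood cells, outnumbered the mature ones in 8 of 8 libraries, with 7945 against 621 and a precursor share of 91.6% ± 3.41, and mir-101b did so too, with 7083 against 1373 and 81.9% ± 5.82. mir-122, in contrast, had 3308 precursor reads against 1422635 mature ones, a share of 0.248% ± 0.0701. Over the 214 hairpins with at least 10 reads per library the median precursor share was 1.29%, and 16 had more precursor than mature reads. Whether reads listed under a precursor were whole hairpins or fragments with other ends was not tested.

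The tRNA reads came almost wholly from tRNAs for glutamate and glycine. Of 433 tRNA entries, 425 had a read, and the entries carried 22 amino acid labels and 52 anticodon labels. Glu entries held 52.5% ± 7.25 of the tRNA reads and Gly entries 47.0% ± 7.45, and the next label with every entry counted was His with 0.320% ± 0.295. Ala stood above His with identical entries counted once, at 0.118% against 0.103%, and with near-identical entries counted once, at 0.847% against 0.380%. By anticodon, Glu-CTC held 51.9% ± 7.61, from 35.7% in WT2 through 53.7% to 61.6% in WT3, and Gly-GCC 42.9% ± 6.81, from 34.0% in WT3 through 41.5% to 57.2% in WT2. The library with the highest share of the first was thus the lowest for the other and the reverse; both are shares of 1 total. Gly-CCC had 4.13% ± 0.640, Glu-TTC 0.663% ± 0.433, His-GTG 0.320% ± 0.295 and Ala-CGC 0.0890% ± 0.0372. These lower levels depended on how copies were counted. With near-identical entries counted once, Gly-CCC had 0.0858% ± 0.0203, Glu-TTC 1.91% ± 1.14, His-GTG 0.380% ± 0.351 and Ala-CGC 0.819% ± 0.343. With every entry counted, His-GTG ranged from 0.0147% in WT2 to 0.875% in WT8.

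Within these anticodons the leading entries were copies. 9 entries of tRNA-Glu-CTC-1 had near-identical reads, each with 5.76% ± 0.845 of the tRNA reads, and 11 entries, 10 of Gly-GCC and tRNA-Gly-CCC-5-1, had 4.12% ± 0.639 each. The leading entry, tRNA-Glu-CTC-1-7, had 1305710 to 7615881 reads per library with a median of 5801147. The Gly leader, tRNA-Gly-GCC-2-2, had 1792574 to 4739782 with a median of 3547865. Counted once, the Glu-CTC-1 set held 52.9% ± 7.75 and the Gly set 37.8% ± 5.86. With every entry counted, 9 entries held 50% of the tRNA reads, 19 held 90% and 25 held 99%, against 1, 2 and 9 with near-identical entries counted once. Since tRNA-Gly-CCC-5-1 joined the Gly-GCC set, the share of Gly-CCC cannot be separated from it. Read lengths are not in the values, so fragments and whole tRNAs could not be told apart.

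circRNA entries, 11674 of 12658 with a read, and the small RNA genes, 748 of 821, were mostly low. The leading circRNA, circ_0016169, had 6907 to 29657 reads per library (median 17291), a share of 0.0222% ± 0.0138 of assigned reads. Its reads were 1.01 to 1.02 times those of let-7f-5p in every library, and whether this entry holds reads of that miRNA was not tested. circ_0004465 had 0.0146% ± 0.0238, but 0.00634% without WT2. circ_0000380 had 0.0114% ± 0.0124, or 0.00759% without WT2, and between 3.05 and 3.14 times the reads of the small RNA gene Gm24305 in every library. Among small RNA genes, Gm23849, in a near-identical set of 7, held 0.00696% ± 0.00830 and Gm22513 0.00397% ± 0.00423. Gm23804, in another near-identical set of 7, held 0.00383% ± 0.00417. Over the libraries Gm22513 had 0.337 to 0.389 times the reads of circ_0000380 and Gm23804 0.332 to 0.346 times. Whether these entries share reads was not tested. Gm23849 held 0.00461% without WT5 and Gm23804 0.00254% without WT2. Whether back-splice junctions were read was not tested.

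The spread between libraries was given by the coefficient of variation, which holds differences between mice and noise of library preparation together. For ncRNAs with a mean of at least 100 reads this coefficient (CV, SD over mean of the normalized counts) was computed over the 8 libraries. Its median was 52.0% for 125 mature miRNAs, with quartiles of 40.9% and 62.5%, beside a median of 3.99% that counting alone would give. tRNAs had a median of 62.1% (95 entries), precursors 48.4% (25), circRNAs 51.4% (227) and small RNA genes 59.9% (99). The miRNA median was 53.5% at 100 to 1000 reads, 46.6% at 1000 to 10000 and 57.5% above, so depth did not order it. Divided by the library total instead of the authors' size factors, the miRNA median was 131% and the tRNA median 70.3%, and divided by the mature miRNA total the miRNA median was 40.9%.

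The steadiest mature miRNAs were let-7e-5p (CV 19.9%), miR-99a-5p (21.6%), miR-99b-5p (22.9%), let-7b-5p (23.6%) and miR-152-3p (26.0%). let-7e-5p had normalized counts of 516 to 929 with a median of 670, and let-7b-5p, with far more reads, 28093 to 60494 with a median of 42565. Scaled by the mature miRNA total, let-7e-5p had a CV of 40.9% and miR-99b-5p 20.1%. The Spearman rho of the CVs under the size factors and under the mature miRNA total was 0.710 over the 125 miRNAs.

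The most variable were miR-8109 (CV 281%), miR-342-3p (147%), miR-1a-3p (146%), miR-215-5p (142%) and miR-215-3p (106%). Each was high in 1 library. Without that library the CV was 125% for miR-8109, 51.2% for miR-342-3p, 89.1% for miR-1a-3p and 43.1% for miR-215-5p. miR-8109 had 0 reads in 3 libraries and 2371 in WT4, with a median normalized count of 2.30 and a highest of 3661. miR-342-3p, known from lymphocytes, had its highest normalized count of 635, against a median of 86.5, and its highest share in WT1. Both arms of miR-215 were highest in WT5, miR-215-5p at 78386 normalized counts against a median of 8387 and miR-215-3p at 659 against 94.5.

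**Figure D5:**
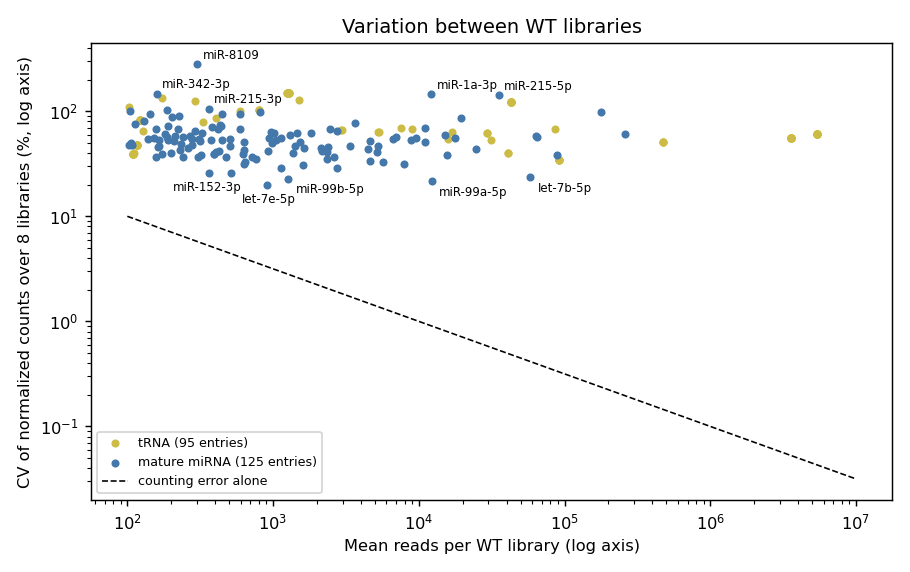
CV of the normalized counts over the 8 WT libraries (%, log axis) against mean reads per library (log axis) for 125 mature miRNAs and 95 tRNA entries with a mean of at least 100 reads, with the value expected from counting error alone as a dashed line. All points lie above the line, and the highest is miR-8109 at 281%.

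miRNAs known as markers of cell types gave a wide range of levels. The 4 liver markers miR-122-5p, miR-148a-3p, miR-192-5p and miR-194-5p, all found in all libraries, summed to 39.2% ± 15.0 of the mature miRNA reads, from 19.3% in WT4 through 43.8% to 60.9% in WT1. miR-148a-3p is also made in other tissues, and miR-194-5p had only 0.0429% ± 0.0387. The 9 red blood cell markers, all detected and 6 in all libraries, summed to 13.8% ± 5.48, from 7.74% in WT1 through 13.1% to 21.6% in WT4. Most of this sum was miR-486a-5p and miR-486b-5p, and with such near-identical entries counted once it was 8.49% ± 3.51, while miR-451a had 0.393% ± 0.291, miR-92a-3p 0.613% ± 0.156 and miR-25-3p 0.862% ± 0.328. miR-16-5p, usually abundant in red cells, had 0.0217% ± 0.00703, miR-144-3p 0.00155% ± 0.00123, miR-363-3p 0.000827% and miR-144-5p 5 reads in all. The log2 ratio of miR-451a to miR-23a-3p, a measure used for haemolysis, was 1.05 ± 0.997, from -0.62 in WT1 through 1.58 to 2.10 in WT4. The part of red cell rupture in these levels was not tested.

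The 7 muscle markers, all detected and 3 in all libraries, summed to 2.41% ± 2.93, from 0.512% in WT2 through 1.12% to 9.03% in WT4, and to 1.46% on average without WT4. miR-1a-3p made up most of it, with miR-206-3p at 0.217% ± 0.0769, and WT4 was the highest library for miR-1a-3p, miR-133a-3p (0.0325%), miR-133b-3p (0.00238%), miR-208a-3p (0.00216%) and miR-499-5p (0.0325%). miR-208a-3p and miR-208b-3p each had reads in 2 libraries, and in WT4 miR-133b-3p rested on 11 reads and miR-208a-3p on 10. miR-206-3p, known from skeletal muscle, was not highest in WT4 but in WT1, at 0.292%.

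The 7 neuron markers summed to 0.684% ± 0.444, from 0.319% in WT2 through 0.509% to 1.62% in WT7. miR-128-3p held 0.534% ± 0.308 and miR-9-5p 0.116% ± 0.114, while miR-129-5p had 0.0236%, miR-124-3p 0.00656% (0.00430% without WT7), miR-9-3p 0.00301% and miR-138-5p 0.000634%. miR-219a-5p, known from oligodendrocytes, was at 0 reads in all 8 libraries, and 5 of the 7 were in all libraries. The opposite arms of its hairpins are outside the list and were named after their values were seen, with 1033 reads of miR-219a-2-3p and 159 of miR-219a-1-3p over the 8 libraries. WT7 was the highest library for 6 of the 6 detected.

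The 5 platelet and myeloid markers, all in all libraries, summed to 0.941% ± 0.254, from 0.521% in WT8 to 1.32% in WT6, of which miR-146a-5p held 0.473% and miR-21a-5p 0.456%. miR-223-3p, a myeloid and platelet miRNA, had 0.00410%, miR-142a-5p 0.00539% and miR-142a-3p 0.00326% (0.00193% without WT3). The precursor entry mir-142a is outside the list and held 7945 reads against 621 mature ones, so these mature shares leave out most reads of that hairpin. The other arm of the miR-223 hairpin, miR-223-5p, is outside the list and was named after its values were seen. It had 3593 reads against 344 of miR-223-3p and was the higher arm in 8 of 8 libraries. The endothelial pair miR-126a-3p (0.290% ± 0.0566) and miR-126a-5p (0.00841%) summed to 0.299% ± 0.0567, the narrowest range of the lists at 1.59-fold. The islet marker miR-375-3p had 0.216% ± 0.124, from 0.0907% in WT7 to 0.394% in WT5. The 6 epithelial markers, all in all libraries, summed to 0.111% ± 0.0487, from 0.0673% in WT4 to 0.216% in WT5, with miR-200a-3p at 0.0452%, miR-203-3p at 0.0369%, miR-200b-3p at 0.0153% (0.0102% without WT5), miR-205-5p at 0.00775%, miR-200c-3p at 0.00514% and miR-141-3p at 0.000484%. The 3 lymphocyte markers summed to 0.0394% ± 0.0186, from 0.0219% in WT3 to 0.0730% in WT1, with miR-150-5p at 0.0229%, miR-342-3p at 0.0155% and miR-155-5p at 0.00102%.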

How the data were processed

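Small RNA libraries of pEVs from 8 WT mice were analysed, and the 8 PS19 libraries were not used here. The authors aligned the reads with STAR 2.5.3a, assigned them with COMPSRA 1.0.3 (mm10 in the submitters' processing notes) and deposited for each ncRNA a signal, which is the read count scaled by the size factor that DESeq2 1.42.1 gave that library. The deposited table also holds the authors' genotype comparison (mean, log2 fold change, its error, test statistic and p-values), which was not used. The lowest value above 0 in a library was taken as 1 read, and on that scale 100% of its values were whole reads to within 1e-06.

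Shares weight each library equally. Replicate numbers are different mice, with 1 library each. The p-values thus measure spread between libraries, which joins differences between mice and noise of library preparation. Arm differences were tested with limma 3.58.1 (R 4.3.3, pseudocount 1, trend on mean level, Benjamini-Hochberg), with edgeR 4.0.16 and an exact sign-flip test as alternatives, and were tested on simulated data. The shares were computed in Python 3.11.15 (pandas 2.3.3, numpy 2.4.6, scipy 1.17.1). Positions are GENCODE and RefSeq on GRCm38. Depth was 36220722 to 117583663 assigned reads, in which a read that matches several copies may be counted more than once, since the handling of such reads is not given in the sources used here, and intervals of counting cover counting error only.

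Named were the 20 leading mature miRNAs, 10 seed families, 5 arms per call, 5 miRNAs at each end of the CV, 5 precursors, 10 tRNA entries (9 of them given as 1 set), 3 entries of each other class and all markers, and clusters shown were chosen after their values were seen. The members and lists were chosen with earlier results of these data known. Alternatives were other scaling, filters, counting of copies, pooled reads and each library left out.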

Additional observations from a re-analysis of the deposited data

Results flagged for a closer look

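Of 51 values checked over the 8 WT libraries for a library whose gap to its nearest neighbour passed the 95% critical value of Dixon's test, 12 were found, where chance gives about 1 in 20, and many of these values share libraries and reads. miR-8109, miR-342-3p and miR-215-3p were checked because of their high CV, so for them the test restates how they were chosen. WT2 was the lowest in tRNA share, at 90.8% against 96.5% in the nearest library, and the highest in miRNA share, at 7.51% against 2.55%, and in circRNA share, at 1.26% against 0.569%. With near-identical entries counted once, WT2 was again the lowest in tRNA share, at 55.0% against 77.6%, and the highest in miRNA share, at 38.3% against 17.9%.

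WT5 had the highest miR-215-5p share, 10.8% against 1.76%, the highest miR-215-3p share, 0.0905% against 0.0286%, and the lowest mature share of miRNA reads, 97.8% against 98.5%. WT4 had the highest miR-1a-3p share, 8.72% against 3.84%, the highest sum of the muscle markers, 9.03% against 4.04%, and the highest miR-8109 share, 0.513% against 0.00168%. WT1 had the highest miR-342-3p share, 0.0511% against 0.0229%. The cause of these values was not tested.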

How the results depend on the processing

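Of 145 values recomputed under other settings, 131 stayed within a set limit and 14 moved. The limit was the SD between libraries for shares and 1.5 times for counts. For median CVs it was the standard error from leaving out each library in turn, and the neighbour count had to be equal. With near-identical entries counted once, chosen after the data were seen, class shares became 86.6% for tRNA, 10.8% for miRNA, 1.97% for circRNA and 0.563% for snoRNA and other, and the leading tRNA entry 52.9%, since fewer copies were counted, and it was 7.31% with only identical entries counted once. The median CV of mature miRNAs became 131% by library total, 40.9% by mature miRNA total, 57.7% from a mean of 10 reads and 141% without a filter, and that of tRNAs 80.1% and 94.5% under those filters. With a mean of at least 100 reads only 72 hairpins were tested, and 36 were higher on 5p and 35 on 3p. Without WT2 the miRNA share was 0.901% and the circRNA share 0.216%, without WT5 miR-215-5p was 1.22%, and without WT4 miR-1a-3p was 1.24% and the muscle markers 1.46%. Further values that leaving out a library moved by over 1.5 times stand beside the results. The muscle markers were 1.419% with pooled reads, and the red blood cell markers 8.49% with near-identical entries counted once. edgeR gave 56 and 53 arms, the sign-flip test, which can pass only where many hairpins differ at once, 55 and 52, no filter 66 and 63 of 190 tested, and summed hairpin copies 71 and 59 of 135. The 4 libraries with the letter F alone gave 55 and 52. With a library left out the smallest possible p of the neighbour test is larger still, so nothing on stability was read from it. No paired analysis was possible because no groups were compared and the replicate numbers shared with PS19 are those of different mice, while arms and neighbours were compared within each library. Depth limits what can be said of the 328 mature miRNAs under 1 read on average.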
